A study of Mus musculus with 12 samples.

Results

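The genes described here are 36 genes of the presynaptic terminal that build synaptic vesicles, dock them at the membrane, and release them. They were taken from the count table by their symbols, and each of the 36 symbols matched 1 of the 55418 genes listed. RNA was measured in the brainstem (medulla plus pons) of outbred CFW mice on postnatal day 15 (P15), from 6 saline-injected and 6 morphine-injected pups, each treatment with 3 females and 3 males, and each mouse gave 1 library. Morphine pups had received 15 mg/kg morphine by subcutaneous injection 2 times a day from P1 to P14, saline pups had received vehicle, and brainstems were taken 16 h after the last injection, so the morphine group models exposure followed by spontaneous withdrawal. The comparison asks whether that exposure changed brainstem gene expression, and whether it did so differently in females and males. Pups of both treatments were raised in mixed litters. The dam of a pup is not in the sample labels, so mice that shared a dam were treated as independent.

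A neurotransmitter is packed into vesicles whose membranes carry synaptophysins and SV2 proteins, and synapsins tether these vesicles to each other and to actin. A vesicle fuses when its synaptobrevin (VAMP) zips together with syntaxin and SNAP-25 in the target membrane, a SNARE complex that complexins clamp and that synaptotagmins trigger when they bind calcium. Rab3 proteins, RIM, Munc13, Bassoon, Piccolo, and ELKS hold and prime vesicles at the active zone, and NSF with its SNAP adaptors takes the spent complexes apart. The medulla and pons hold fast-firing auditory, respiratory, and motor circuits, whose terminals are known for the synaptotagmin-2 and VAMP1 forms of this machinery.

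The upstream sequence of several members is shown because the GC content of transcripts varied with the differences between mice described below. RefSeq (GRCm38.p6) start sites were at hand for 28 of the 36 members, 7 of them with more than 1 start. The stretch of 250 bases before the start was GC rich in the members, with a median GC content of 61.4% and a range of 41.0% to 80.4%, against a median of 52.4% over 27025 genes. The GC box GGGCGG, read on both strands, was found before 20 of the 28 members (71.4%), against 35.4% of all genes. Stx1a and Unc13a are printed as members that were low in 1 control library described below, and Pclo and Rab3c as members that were high in it, chosen among members with 1 start and at least 200 bases before an exon. Other members stood lower or higher in that library. Each sequence runs 5′ to 3′ on the strand of its gene, holds no annotated exon, and has the GC boxes in capitals. The stretch of Rab3c lies before its RefSeq start but inside the gene as annotated by GENCODE (chr13:110054187-110280996).
Stx1a, chr5:135023232-135023481, plus strand: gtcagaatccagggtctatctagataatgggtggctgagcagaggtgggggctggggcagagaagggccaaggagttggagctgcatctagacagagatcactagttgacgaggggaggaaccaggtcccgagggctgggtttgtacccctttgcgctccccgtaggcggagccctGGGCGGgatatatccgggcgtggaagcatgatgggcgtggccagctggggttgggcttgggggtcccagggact
Unc13a, chr8:71671758-71672007, minus strand: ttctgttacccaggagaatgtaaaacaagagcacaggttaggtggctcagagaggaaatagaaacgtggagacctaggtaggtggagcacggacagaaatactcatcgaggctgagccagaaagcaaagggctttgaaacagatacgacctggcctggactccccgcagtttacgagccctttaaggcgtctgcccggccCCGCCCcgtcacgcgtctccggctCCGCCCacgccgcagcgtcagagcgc
Pclo, chr5:14514668-14514917, plus strand: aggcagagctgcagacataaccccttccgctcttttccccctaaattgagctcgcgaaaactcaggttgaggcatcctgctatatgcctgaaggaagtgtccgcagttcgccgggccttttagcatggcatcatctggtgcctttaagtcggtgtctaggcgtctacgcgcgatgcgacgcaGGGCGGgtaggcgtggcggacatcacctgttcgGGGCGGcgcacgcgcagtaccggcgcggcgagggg
Rab3c, chr13:110280207-110280456, minus strand: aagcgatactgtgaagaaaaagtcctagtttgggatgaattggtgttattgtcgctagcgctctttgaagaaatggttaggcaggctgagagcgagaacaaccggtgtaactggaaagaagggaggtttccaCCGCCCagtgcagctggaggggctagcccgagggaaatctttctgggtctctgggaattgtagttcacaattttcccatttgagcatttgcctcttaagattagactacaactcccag

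All 4 stretches carry at least 1 GC box, with 1 in Stx1a and Rab3c and 2 in Unc13a and Pclo. The GC content of the stretches was 62.0% for Stx1a and 58.0% for Unc13a, which were low in that library. It was 61.2% for Pclo and 47.6% for Rab3c, which were high in it. A relation between upstream GC content and the level in that library was not tested. Other motifs were rare. The cAMP response element TGACGTCA was found before 1 member, Syn1 (3.6% of members against 1.8% of all genes). The left arm TTCAGCACC of the RE1 site, at which the repressor REST binds in non-neuronal cells, was also found before Syn1 alone (3.6% against 0.3%), and the letters GGACAGC of the right arm before Sypl alone (3.6% against 6.1%). Only exact matches were counted, so arms with changed bases were missed, and these counts do not show which members carry a whole RE1 site. The TATA box TATAAA was found before Sv2b and Rab3b (7.1% against 14.3%). Syn1 is printed as the GC-rich member that did not follow the others below, up to its first annotated exon, with the RE1 arm and the cAMP response element in capitals.
Syn1, chrX:20921005-20921168, minus strand: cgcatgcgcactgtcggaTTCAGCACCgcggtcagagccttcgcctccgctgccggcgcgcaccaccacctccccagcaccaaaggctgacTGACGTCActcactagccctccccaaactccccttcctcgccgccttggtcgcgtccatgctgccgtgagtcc

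The libraries held 27850565 to 48097947 counts (median 33214511), and levels are given as CPM, the counts scaled to a common library size. The deposited protocol names spinal cords, whereas the tissue label and the study give brainstem. A list of 5 hindbrain genes summed to 508 to 663 CPM over the 12 libraries, and 5 Hox genes of the thoracic to lumbar cord to 0.0288 to 0.523 CPM. The hindbrain sum was mostly Slc6a5, with a mean of 551 CPM, whereas Hoxb2, the lowest gene of that list, had 1.58 CPM. The 4 genes of pontine and medullary monoamine neurons summed to 30.1 to 58.5 CPM. Forebrain genes summed to 8.13 to 14.7 CPM. Genes of cerebellar granule cells summed to 21.0 to 41.2 CPM in saline mice and 31.7 to 79.9 CPM in morphine mice, so both lists were low. The 10 pan-neuronal genes summed to 7884 to 9059 CPM in saline mice and 7477 to 8667 CPM in morphine mice. In bulk tissue, fewer neurons and less of these transcripts per neuron cannot be told apart. The library labelled morphine male 6 had 379.9 CPM of the female-specific Xist and 9.03 to 19.0 CPM of 4 Y-linked genes, against 0.398 to 2.71 CPM and 24.7 to 198.8 CPM in the other males. The numbers of members passing, higher, and lower in the sex-combined and male comparisons are also given without that library. So are the male and between-sex estimates of the members described mouse by mouse. Other results include it unless stated, among them the interval tallies, the tallies by role, the sex-combined estimate of Snap25, and the permutation tests.

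Levels were compared between genes as CPM per kilobase of merged exons, and the plot of levels by role shows each mouse on that scale. Among the SNARE and fusion genes, Cplx1 had the highest level, at 351 ± 109 CPM per kb (SD, n = 6 saline mice), followed by Snap25 at 322 ± 34.0 and Vamp2 at 161 ± 14.2. The spread of Cplx1 covered the level of Snap25, so the order of these genes is not resolved. The adaptor Napb (96.3 ± 13.8), the ATPase Nsf (94.3 ± 8.10), Vamp1 (91.2 ± 10.1), and Cplx2 (73.8 ± 17.4) lay close together. Stx1a, a syntaxin of the target membrane, was far lower at 5.11 ± 2.93. Cplx3, the complexin of retinal ribbon synapses, had 1 to 7 counts in each library and was the 1 member that did not pass the low-count filter.

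**Figure D1:**
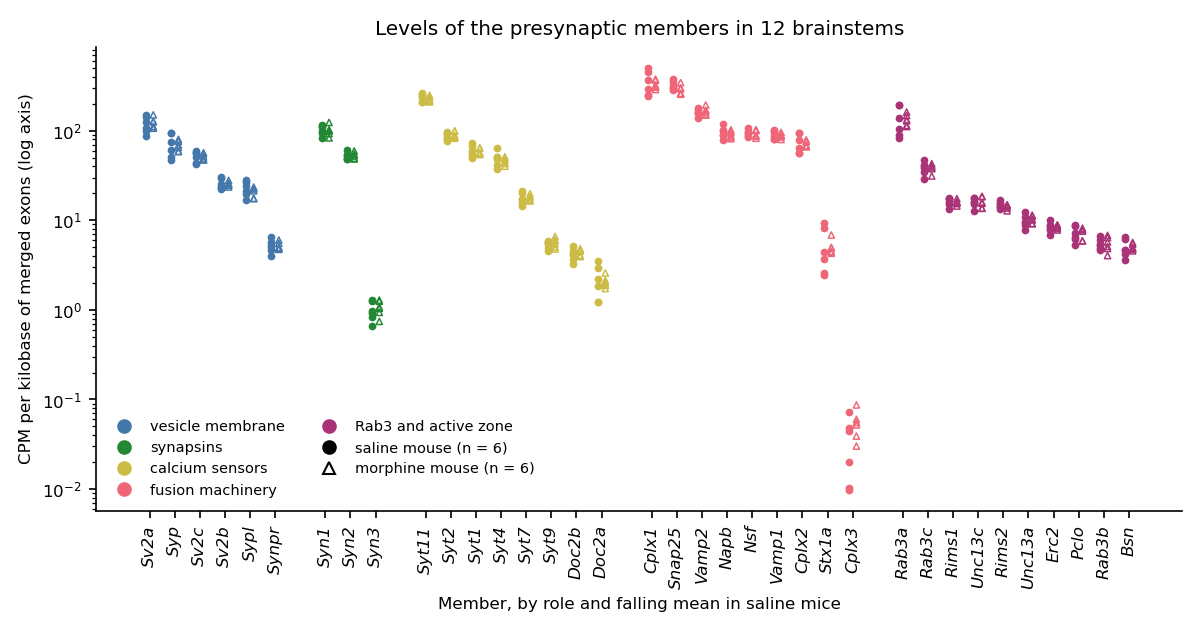
Level of each of the 36 members in 12 mice, in CPM per kilobase of merged exons on a log axis, with members grouped by role; filled circles are the 6 saline mice and open triangles the 6 morphine mice. Cplx1 and Snap25 sit near the top, Cplx3 lies under 0.1, and the 2 treatments overlap for every member.

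Among the calcium sensors, Syt11, a synaptotagmin that does not bind calcium, had 236 ± 23.8 CPM per kb, above the release sensors Syt2 (87.5 ± 8.01) and Syt1 (59.3 ± 8.83). Syt4, an atypical synaptotagmin, was at 48.9 ± 9.34, and Syt7, a slow sensor, at 17.7 ± 2.56. Syt9 (5.34 ± 0.506), Doc2b (4.14 ± 0.643), and Doc2a (2.17 ± 0.917) were lowest, and Doc2 proteins are high-affinity sensors linked to spontaneous release. Among the synapsins, Syn1 was at 102 ± 12.5 and Syn2 at 52.3 ± 5.02, whereas Syn3 was at 0.988 ± 0.250.

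Among the vesicle membrane genes, Sv2a was at 119 ± 25.1 CPM per kb, the synaptophysin gene Syp at 70.1 ± 21.1, and Sv2c at 51.5 ± 6.81. Sv2b (25.9 ± 3.23), the synaptophysin-like gene Sypl (22.7 ± 4.31), and the synaptoporin gene Synpr (5.21 ± 0.850) were lower. Among the Rab3 and active zone genes, Rab3a was highest at 133 ± 49.8 and Rab3c next at 38.2 ± 6.14, with Rab3b at 5.49 ± 0.747. The RIM genes Rims1 (16.1 ± 1.71) and Rims2 (14.98 ± 1.26) and the Munc13 gene Unc13c (15.9 ± 1.82) did not differ by more than their spread. The other Munc13 gene Unc13a was at 9.86 ± 1.62, the ELKS gene Erc2 at 8.38 ± 1.01, the Piccolo gene Pclo at 7.09 ± 1.35, and the Bassoon gene Bsn at 4.96 ± 1.16.

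The choice of length changed some of these orders. Per kilobase of the longest coding transcript, Snap25 was highest at 1032 ± 109, Cplx1 followed at 351 ± 109, and Vamp1 next at 308 ± 34.2, ahead of Vamp2 at 279 ± 24.5. The share of Vamp2 in the sum of Vamp1 and Vamp2 was 64.6% ± 2.0 (SD, n = 12 mice) by merged exons and 48.3% by coding transcripts. In the same way Syt2 made up 60.1% ± 3.7 of Syt1 and Syt2 by merged exons and 49.3% by coding transcripts, Syn1 65.2% ± 1.7 of the synapsins against 50.7%, and Rims1 52.3% ± 1.5 of the 2 RIM genes against 36.6%. Which paralog leads in these families is therefore not settled by the counts. The share of Cplx1 in its family (82.1% ± 1.0) and of Rab3a in its family (74.1% ± 6.8) moved by less than the spread between mice.

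Within a family the shares were close in saline and morphine mice. Cplx1 made up 82.4% ± 1.1 of the complexins in saline and 81.9% ± 0.9 in morphine mice (SD, n = 6 each). Vamp2 made up 63.9% ± 2.4 and 65.2% ± 1.4 of its pair, and Syt2 59.7% ± 5.0 and 60.6% ± 2.2 of its pair. Rab3a made up 73.4% ± 9.1 of the Rab3 genes in saline and 74.9% ± 4.1 in morphine mice. The range was widest for Bsn and Pclo, a GC-rich and an AT-rich gene, where Pclo made up 45.0% in saline male 2 and 70.5% in saline male 3.

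No presynaptic member passed the test of morphine against saline mice. Of the 35 members tested, 0 passed an unadjusted p of 0.05 with an absolute log2 fold change over 0.26 (the study's thresholds) in the quasi-likelihood test of edgeR in any of 4 comparisons, and 0 had an unadjusted p under 0.05. DESeq2 also passed 0 members in the 4 comparisons, as did the exact test of edgeR in the 3 between treatments. Over all genes tested, 1.19% passed in the sex-combined comparison, 1.81% in females, 2.99% in males, and 2.94% in the test of whether the change differed between the sexes. No gene (0% of those tested) had an adjusted p under 0.05 in the quasi-likelihood test in any of the 4 comparisons, whereas DESeq2 called 3 genes in females and edgeR's exactTest 3 in females and 1 in males, no member among them. The levels of morphine and saline mice overlapped for each of the 35 members, whereas 0.0430% of all genes had levels that did not overlap in the sex-combined comparison, 5.65% in females, and 9.10% in males.

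The differences were also small. In the sex-combined comparison, log2 fold changes (morphine minus saline) ran from -0.17 (Snap25) to 0.11 (Doc2b), 18 members were higher and 17 lower, and the median was 0.0076, against -0.02 over all genes tested. These tallies were not stable: scaling by total counts, which moved the median of all genes to 0.03, gave 28 higher and 7 lower, and leaving out saline female 6 gave 10 higher and 25 lower, morphine female 3 gave 11 and 24, and saline female 4 gave 25 and 10. Without the library labelled morphine male 6 they were 16 and 19, with a median of -0.0086. In females 15 members were higher and 20 lower, with a median of -0.02 against -0.0058 over all genes. In males 18 were higher and 17 lower, with a median of 0.01 against -0.06 over all genes, compared with 24 and 11 by total counts. The 95% confidence interval lay within 0.5 log2 units of 0 for 33 of 35 members in the sex-combined comparison (57.6% of all genes), for 32 in females (53.1%), and for 16 in males (18.7%). Changes beyond that size were outside the interval for most members in the sex-combined comparison and in females, and could not be resolved for 19 members in males.

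**Figure D2:**
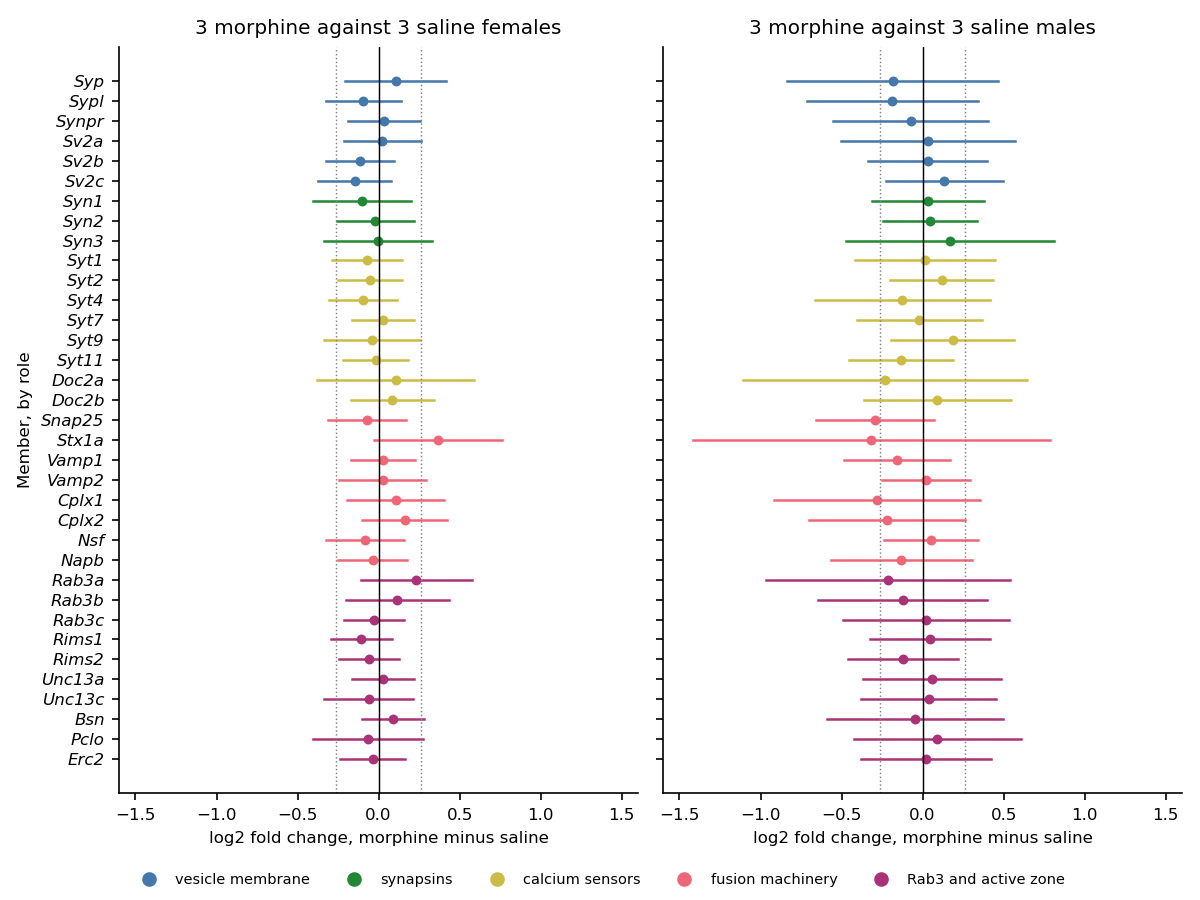
Log2 fold change (morphine minus saline) of 35 members in females (left) and males (right), with 95% confidence intervals from the edgeR quasi-likelihood fit; colors mark roles and dotted lines the fold-change threshold of 0.26. Every interval crosses 0, and the intervals are wider in males, most of all for Stx1a.

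By role, with all 12 libraries, the fusion machinery genes had the widest gap in median between the sexes. Of 8 tested, 5 had positive estimates in females and 2 in males, with medians of 0.03 and -0.19, and 0 passed. Over all genes, 48.2% of estimates were positive in females and 37.6% in males. Stx1a, Vamp1, Cplx1, and Cplx2 of this role were highest in saline males 1 and 2, whose split from saline male 3 is described below. All 3 synapsins had negative estimates in females (median -0.02) and positive estimates in males (median 0.05), and 0 passed. Of the 8 calcium sensors, 3 had positive estimates in females and 4 in males. Of the 6 vesicle membrane genes, 3 had positive estimates in each sex, and of the 10 Rab3 and active zone genes, 4 in females and 6 in males. The sex comparisons were tested directly by the interaction, and 0 members passed, with a median difference between the sexes of 0.01 log2 units against -0.03 over all genes. The differences of the members ran from -0.67 (Stx1a) to 0.30 (Sv2c). The confidence interval of the difference lay within 0.5 log2 units of 0 for 7 of 35 members (11.4% of all genes). For the other members, a difference between the sexes beyond that size could not be resolved.

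With no member passing, the 8 members with the smallest p in any comparison are given mouse by mouse. The first was Stx1a (chr5:135023482-135051100, plus strand), syntaxin 1A. Its levels were 11.8, 9.88, and 6.96 CPM in saline females and 11.7, 11.9, and 13.3 CPM in morphine females. The lowest morphine female was just under the highest saline female. The log2 fold change in females was 0.37 ± 0.18 (SE), with a 95% interval of -0.03 to 0.76, unadjusted p = 0.0659, and adjusted p = 1.00 in edgeR. In males, Stx1a was at 22.1, 24.6, and 6.49 CPM in the saline group and 13.0, 11.4, and 18.2 CPM in the morphine group. Saline males spanned a wider range than all other mice, with 2 at the top and 1 at the bottom, and the fold change was -0.32 ± 0.47, or -0.55 ± 0.54 without the library labelled morphine male 6.

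Snap25 (chr2:136713453-136782428, plus strand), the SNARE of the target membrane, had the smallest p in males. It was at 2153, 1950, and 2547 CPM in saline males and 1729, 1995, and 1750 CPM in morphine males. Morphine male 5 lay above saline male 2, so the groups overlapped. The log2 fold change was -0.29 ± 0.15 (95% interval -0.66 to 0.07), with adjusted p = 1.00 in edgeR, and -0.27 ± 0.20 without the library labelled morphine male 6. Saline male 3 had the highest level of Snap25, and without that mouse the fold change was -0.14 ± 0.10. Females were at 2375, 2040, and 2036 CPM under saline and 2040, 1780, and 2332 CPM under morphine, a fold change of -0.07 ± 0.11. Over both sexes Snap25 had the smallest p of the members in the sex-combined comparison, at -0.17 ± 0.10 log2 units, and an exact permutation test of 6 against 6 mice gave p = 0.0887, where the smallest possible value is 0.00216.

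Sv2c (chr13:95954594-96132577, minus strand), a vesicle glycoprotein gene, had the smallest p of the members for a difference between the sexes. Saline females had 545, 499, and 568 CPM and morphine females 458, 548, and 458 CPM. Saline males had 425, 413, and 544 CPM and morphine males 541, 506, and 480 CPM. The change in males minus that in females was 0.30 ± 0.19 log2 units (95% interval -0.11 to 0.70), with adjusted p = 0.985 in edgeR, and 0.34 ± 0.20 without the library labelled morphine male 6.

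Rab3a (chr8:70754679-70758677, plus strand), the main vesicle Rab, was at 308, 233, and 197 CPM in saline females and 294, 247, and 328 CPM in morphine females. The fold change in females was 0.23 ± 0.15 with an interval of -0.11 to 0.58. Saline males had 425, 433, and 186 CPM and morphine males 287, 255, and 358 CPM, so 2 saline males were again above every other mouse and 1 below. Cplx2 (chr13:54371349-54383917, plus strand), a complexin, was also split, at 461, 463, and 280 CPM in saline males and 337, 324, and 374 CPM in morphine males. In females Cplx2 was at 385, 318, and 274 CPM under saline and 371, 335, and 389 CPM under morphine, and its difference between the sexes was -0.37 ± 0.25 log2 units, or -0.43 ± 0.28 without the library labelled morphine male 6.

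The other 3 had smaller differences. Rims1 (chr1:22286251-22805994, minus strand) was at 127, 117, and 128 CPM in saline females and 117, 118, and 113 CPM in morphine females, a fold change of -0.11 ± 0.08. Sv2b (chr7:75114894-75309262, minus strand) was at 245, 199, and 214 CPM in saline females and 206, 197, and 208 CPM in morphine females, a fold change of -0.11 ± 0.09. Syt2 (chr1:134646677-134762593, plus strand), the fast calcium sensor, was at 699.6, 717, and 579.9 CPM in saline males and 757, 658, and 759.9 CPM in morphine males. In females it was at 738, 617, and 657 CPM under saline and 628, 678, and 641 CPM under morphine, and its difference between the sexes was 0.19 ± 0.16 log2 units, or 0.15 ± 0.18 without the library labelled morphine male 6. In exact permutation tests over the 6 and 6 mice, the other 7 members had p from 0.587 (Syt2) to 0.959 (Cplx2).

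**Figure D3:**
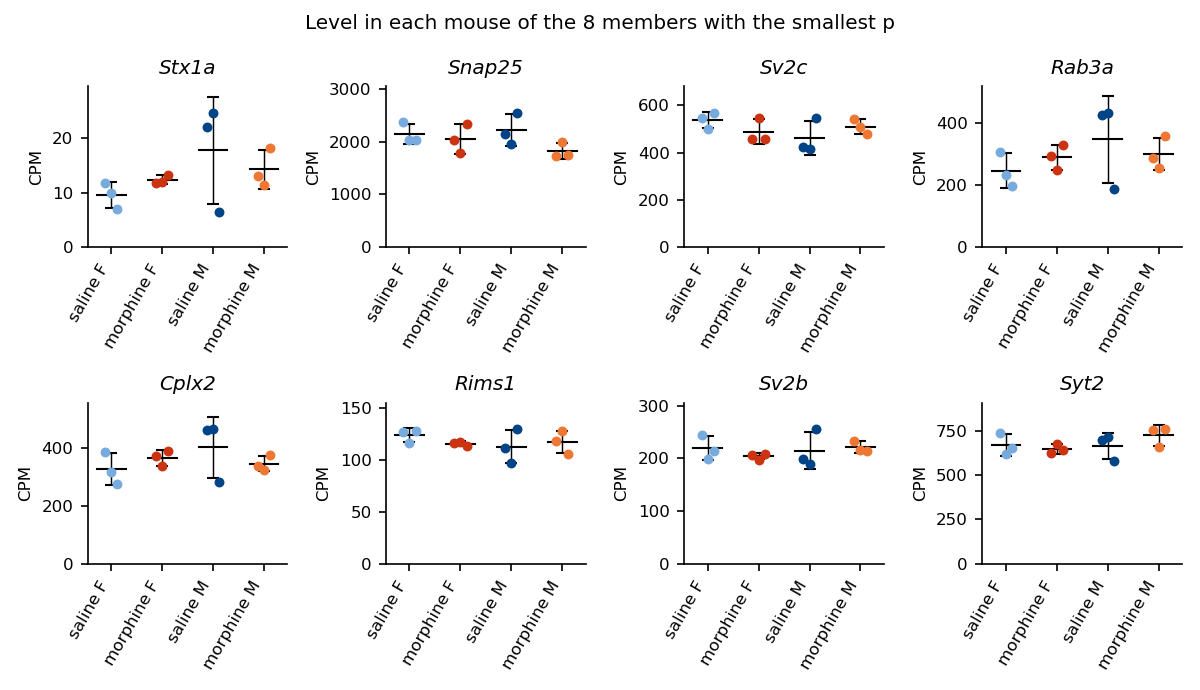
Level in CPM of the 8 members with the smallest p in each mouse (F, female; M, male); points are mice, horizontal bars means, and error bars SD, with 3 mice per group and axes that start at 0. Saline and morphine mice overlap in each panel, and the saline males are split for Stx1a, Rab3a, and Cplx2.

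The levels of several members were split among the saline males. Saline males 1 and 2 were the 2 highest of the 12 mice for 9 of 35 members, among them Stx1a, Syp, Rab3a, Cplx1, Cplx2, Bsn, and Doc2a, and saline male 3 was the lowest mouse for 12 and the highest for 11. Over all genes tested, saline males 1 and 2 were the 2 highest for 22%, and saline male 3 was lowest for 25.5% and highest for 21.7%, so the split was not particular to these genes. Syp, a common vesicle marker, was at 496 and 488 CPM in saline males 1 and 2 and 245 CPM in saline male 3, with the other 9 mice at 262 to 417 CPM. Cplx1 was at 995 and 1093 CPM against 527 CPM. In the other direction, Syt4 was at 160 and 147 CPM in saline males 1 and 2 and 251 CPM in saline male 3, and Sypl at 141 and 164 CPM against 236 CPM.

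The direction varied with the base composition of the transcript. Of the 10 members whose longest transcript had a GC content of 54% or more, 9 were lower in saline male 3 than in the mean of saline males 1 and 2, with a median of -0.79 log2 units and a lowest value of -1.83 (Stx1a). Of the 11 members under 46%, 9 were higher, with a median of 0.51 and a highest value of 0.71 (Syt4). These GC bounds were set after the values were seen. The Pearson correlation between that difference and the GC content was -0.695 across 35 members and -0.742 across 19027 genes, which share libraries and are not independent. Syn1 went against the others: its transcript is 57.9% GC, and it was at 276 and 307 CPM in saline males 1 and 2 and 364 CPM in saline male 3. Syp and Syn3 were low in saline male 3 although their longest transcripts have 45.4% and 45.3% GC. The coding transcripts of Syp have 56.6% to 57.5% GC, whereas the longest coding transcript of Syn3 has 46.5%, so Syn3 remained an exception. With the longest coding transcript of each gene, a choice made after the values were seen, the correlation across the 35 members was -0.791.

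**Figure D4:**
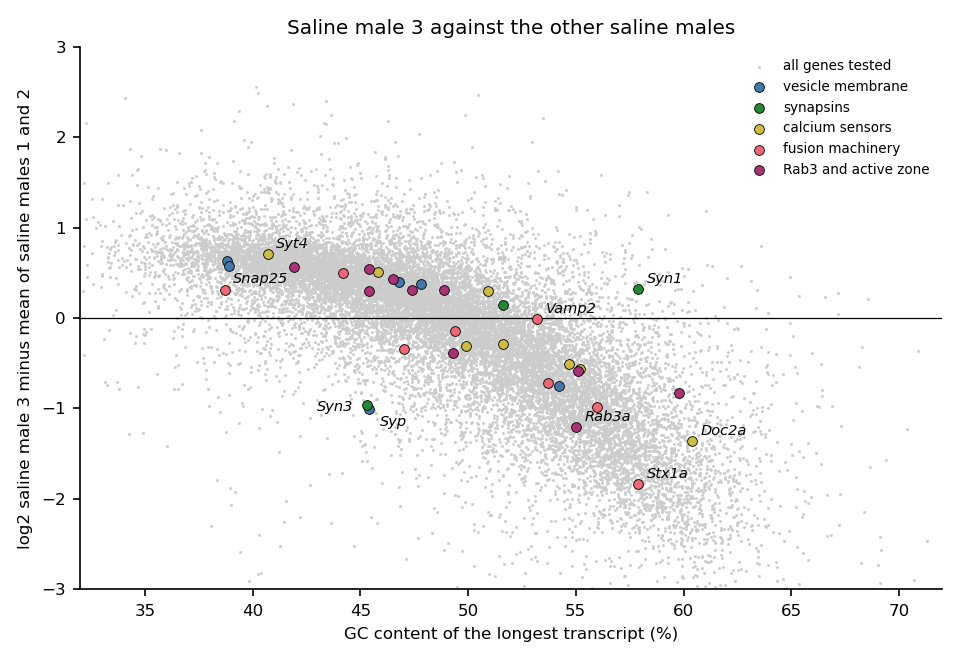
Log2 level of saline male 3 minus the mean of saline males 1 and 2 against the GC content of the longest transcript, for 19027 genes (grey; 86 lie outside the axes) and 35 members colored by role. Members from 54% GC upward lie below 0 except Syn1, and most members under 46% lie above 0.

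Other measures moved with this split. Oligodendrocyte genes summed to 57446 and 60164 CPM in saline males 1 and 2 and 38229 CPM in saline male 3, against 33453 to 48938 CPM in the other 9 mice. Cytosolic ribosomal protein genes summed to 9527 and 9073 CPM against 5771 CPM, and mitochondrially encoded genes to 56813 and 54209 CPM against 81210 CPM. Pan-neuronal genes summed to 7884 and 8113 CPM in saline males 1 and 2 and 9059 CPM in saline male 3. Their part in the split was not tested. Across all genes, the correlation of a library's deviation with transcript GC was 0.689 and 0.767 in saline males 1 and 2, -0.787 in saline male 3, -0.638 in saline female 6, and 0.678 in the library labelled morphine male 6, and it ran from -0.450 to 0.091 in the other 7 libraries. In saline female 6, Stx1a (6.96 CPM) and Doc2a (3.45 CPM) were low as well.

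**Figure D5:**
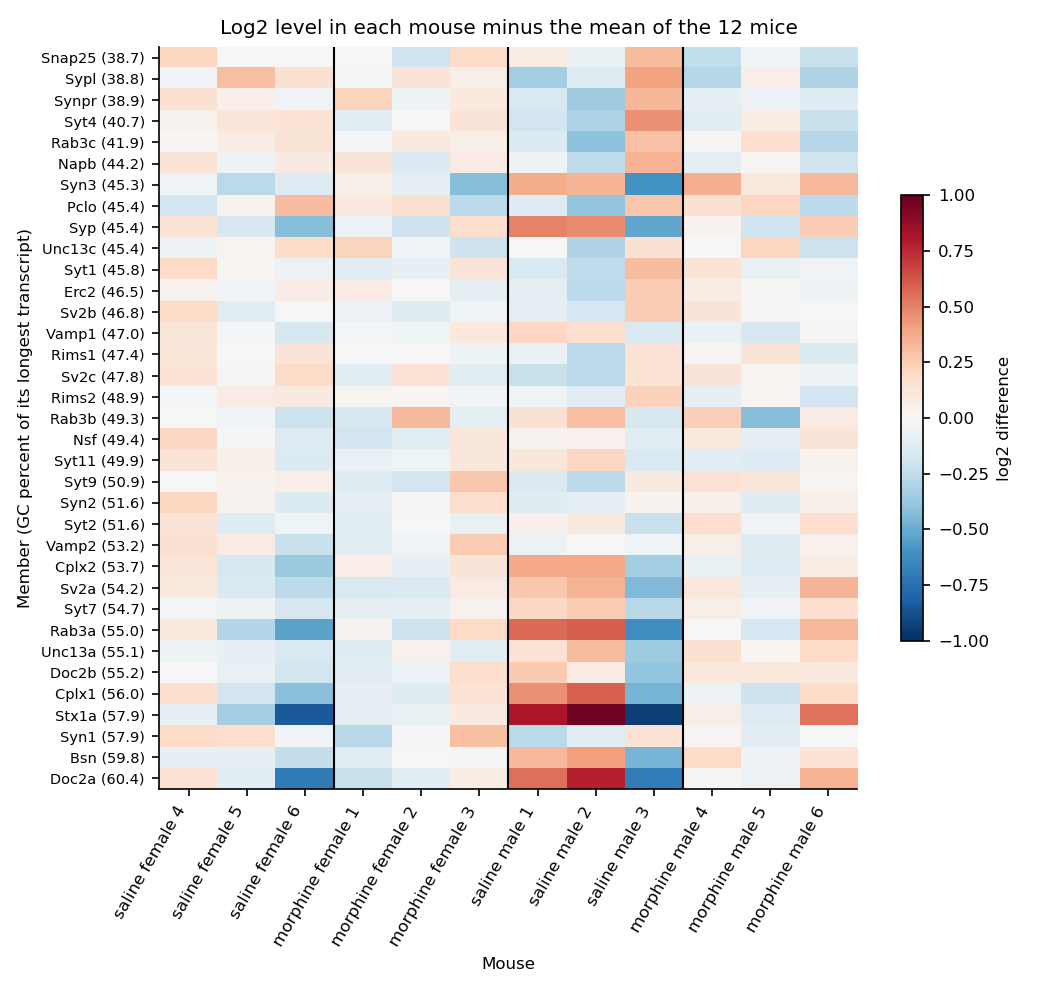
Log2 level of 35 members in each of 12 mice minus the mean of the 12, with members ordered from the lowest (38.7%) to the highest (60.4%) GC content of the longest transcript. Saline male 3 runs from red at the top to blue at the bottom, saline males 1 and 2 run the other way, and Syn1 breaks the order near the bottom.

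The male comparison depended on saline male 3. Without it, 9 of 35 members passed the thresholds in males, but so did 28.6% of all genes tested. Of the 9, 6 fell: Stx1a (by 0.67 log2 units), Doc2a (by 0.52), Cplx1 (by 0.50), Rab3a (by 0.48), Syp (by 0.41), and Cplx2 (by 0.39). Genes that fell made up 18.8% of all genes. The other 3 rose, Syt9 (0.33), Pclo (0.33), and Sv2c (0.31), and 9.85% of all genes rose. Cplx1 (adjusted p = 0.0422) and Cplx2 (adjusted p = 0.0466) had an adjusted p under 0.05 in edgeR, a mark that 11.5% of all genes reached. In the test of a difference between the sexes, 10 members passed without saline male 3, against 24.1% of all genes, and Stx1a (-1.08 log2 units, adjusted p = 0.0323) and Cplx2 (-0.59, adjusted p = 0.0437) were among the 9.22% of genes with an adjusted p under 0.05.

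The set of members called without that mouse was different when a trend on GC content and exon length jointly was removed. When a smooth trend of each library on GC content and exon length was taken out as well, 8 members passed in males against 19.5% of all genes, and 6 members had an adjusted p under 0.05 in edgeR, against 8.37% of all genes. Cplx1, Cplx2, Rab3a, Stx1a, Doc2a, Sv2c, and Pclo no longer passed, and the estimate for Stx1a went from -0.67 to -0.09. Syp (-0.53) and Syt9 (0.43) passed in both fits, and Syn1 (0.79), Snap25 (-0.38), Vamp1 (-0.37), Vamp2 (0.29), Bsn (0.28), and Doc2b (0.33) passed in the second fit. Without the trend taken out, the value of Syn1 was 0.19 and that of Snap25 was -0.14. The trend used the GC content of the longest transcript. For Syp, Snap25, and Vamp1 this differs by more than 3 points from that of the longest coding transcript. The SD within groups of these 3 rose when the trend was taken out (from 0.35 to 0.45, 0.17 to 0.23, and 0.13 to 0.21 log2 units). It also rose for members without such a difference: Syn1, Syn2, Syn3, Nsf, Syt9 (0.17 to 0.22), and Vamp2 (0.15 to 0.20). Whether the difference in GC content plays a part was not tested. In the test between the sexes, 8 members passed in that fit, against 17.0% of all genes, and 1 of them, Syn1, had an adjusted p under 0.05, against 2.14% of all genes. With all 6 males and the trend taken out, 0 members passed. Taking out the trend lowered the spread within groups for 26 of 35 members, and the median SD went from 0.19 to 0.14 log2 units, compared with 0.29 to 0.20 over all genes. The SD of Stx1a fell from 0.59 to 0.20 and that of Cplx1 from 0.33 to 0.06, whereas that of Syn1 rose from 0.19 to 0.49.

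Leaving out the library labelled morphine male 6 alone passed 0 members in males, with 16 higher, 19 lower, and a median of -0.06, and 0 in the test between the sexes. Leaving out both that library and saline male 3 left 2 saline and 2 morphine males. In that fit 15 members passed, against 41.0% of all genes. An adjusted p under 0.05 in edgeR was reached by 14 members and by 35.7% of all genes. The correlation with transcript GC across all genes was 0.689 and 0.767 in these saline males. It was 0.012 and -0.357 in these morphine males, so treatment and the GC trend cannot be told apart in that fit. In females, leaving out saline female 4 passed 4 members, Stx1a (0.54), Rab3a (0.42), Cplx2 (0.29), and Cplx1 (0.26), against 7.95% of all genes, and 2 members, Stx1a and Syp, with the trend taken out as well, against 4.97%. Leaving out morphine female 3 passed Syn1 (-0.27), against 1.52% of all genes, and keeping all genes with any count passed Stx1a (0.36), against 3.15%.

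Genes of the wider presynaptic terminal were also tested. Of 69 other genes of vesicle cycling, docking, and transmitter loading, 67 or 68 were tested in each comparison, and 0 passed in the sex-combined, female, or male comparison. In the test between the sexes, 3 of 68 passed, against 2.94% of all genes. Atp6v0c, a subunit of the proton pump that energizes vesicle filling, was at 68.9 and 93.3 CPM in saline males 1 and 2 and 12.2 to 26.4 CPM in the other 10 mice, and its difference was -1.85 ± 0.71 log2 units. The value rested on the same 2 mice. Erc1, an ELKS gene related to the member Erc2, had a difference of 0.36 ± 0.15, and Cplx4, a complexin of the retina, was at 0.375 CPM or less in every mouse. The adjusted p in edgeR was 0.985 for each.

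Some counts may be shared with neighboring genes. Exons of Doc2a share 1103 of 2803 annotated bases with Ino80e on the opposite strand, and those of Syn3 share 1733 of 12282 with Timp3. Syp shares 875 of 5211 bases with Gm14703, and Syt4 shares 566 of 3892 with Gm26658, both on the opposite strand. Whether reads were counted by strand is not given in the sources used here, so values of these members may hold reads of those neighbors.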

How the data were processed

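RNA was measured by poly-A-selected, single-end 100 bp sequencing in 12 brainstems. Per the labels, the authors used Trimmomatic for trimming, STAR for alignment (mm10), and featureCounts for exon counts (versions not given in the sources used here). The deposited values are raw counts per gene, with no normalization, and all 12 columns were used. Groups came from the labels. The test was edgeR's quasi-likelihood F-test (version 4.0.16, R 4.3.3, TMM, filterByExpr), fitted on all genes that passed the filter (18109 to 19027), with Benjamini-Hochberg adjustment over them. Sex was a covariate in the sex-combined fit, and females and males were fitted alone. Dam, which the series description names as a covariate, is in no sample label and was not used. Levels are CPM with TMM factors. Exon lengths and GC content came from GENCODE M21 (GRCm38), whose symbols matched all 55418 genes. DESeq2 1.42.0 and other settings were alternatives. The sex-combined and female fits were run on simulated counts that held no GC trend. The male and interaction fits were not simulated. P-values set each difference against the spread between mice. With 1 library per mouse, that spread includes differences between libraries.

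The members and the lists were chosen with earlier results of these data known. Named in full were members that passed in any of 4 comparisons, or, with fewer than 8, the 8 with the smallest p. No 2 libraries were alike, with equal counts in 0.762% to 1.83% of tested genes.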

Additional observations from a re-analysis of the deposited data

Results flagged for a closer look

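Among the 6 morphine mice, Stx1a stood apart in the library labelled morphine male 6, at 18.25 CPM against 13.28 CPM in the next mouse, a gap of 0.726 of the whole range and above Dixon's critical value for 6 mice. It was the 1 such gap among 70 groups examined (35 members in saline and in morphine mice), and chance gives about 1 in 20. The same library carried both Xist and Y-linked transcripts. Its correlation with transcript GC across all genes was 0.678, and the longest transcript of Stx1a has 57.9% GC. Whether either plays a part in the gap was not tested.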

How the results depend on the processing

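In the sex-combined comparison, 0 members passed under each of 21 alternatives, and in the other comparisons DESeq2, the exact test (females and males), a stricter filter, and removal of the GC and length trend alone also passed 0. In females, 1 member passed with no filter on low counts and 2 with saline female 4 left out and the trend removed, and leaving out 1 mouse gave 0 to 4. In males, leaving out 1 mouse gave 0 to 9 members (9 without saline male 3), and 8 passed without saline male 3 and the trend, and 15 without saline male 3 and the library labelled morphine male 6. The interaction gave 0 to 10 when 1 mouse was left out (10 without saline male 3), and 8 without that mouse and the trend. The median log2 fold change of members in males was 0.1398 when libraries were scaled by total counts, which moved the median of all genes from -0.06 to 0.06, and -0.0647 to 0.0605 with 1 mouse left out; for the interaction it was 0.1137 by total counts. Sv2b in females reversed to 0.047 with saline female 4 left out and the trend removed. By the length of the longest coding transcript, family shares moved to 50.7% for Syn1, 49.3% for Syt2, 48.3% for Vamp2, and 36.6% for Rims1. The settings that combine the trend or 2 libraries, and coding length, were chosen after seeing the data. The cause was not tested.

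Replicate numbers did not pair the samples: same-numbered saline and morphine mice differ in sex, and the correlation of their deviations ran from -0.343 to 0.176. With the replicate block, 0 members passed in the sex-combined comparison and their median log2 fold change was 0.01. Within females or males no replicate number is shared, so no paired analysis was possible there. With 3 mice per group, changes under the size of the intervals given could not be resolved.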
